A study of Mus musculus with 4 samples.

Results

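Acetylation of lysine 14 on histone H3 (H3K14ac) was followed in mouse embryonic stem (mES) cells by chromatin immunoprecipitation and sequencing with the monoclonal antibody 13HH3-1A5, here 13HH3, and compared with the input DNA of the series. These are 2 of the 4 samples of the series, taken by their titles, and each is 1 library. The other 2 are immunoprecipitates with an antibody to H3K9ac (ab4441) and with another antibody to H3K14ac (7G8), which are given beside 13HH3 only as densities. All 4 samples are labelled as mES cells of the E14 cell line, strain 129P2/OlaHsd, untreated, whereas the methods of the study describe wild type cells derived from blastocysts and grown on feeder cells, then passaged on gelatin to remove the feeders. The 13HH3 antibody was raised in mouse against an acetylated peptide of the H3 tail. Input DNA is sonicated chromatin that saw no antibody. Without replicates, no test between libraries was possible, and the intervals of ratios below are exact 95% intervals that cover counting error only. Intervals of medians over genes are binomial intervals of the median, with genes as units. They give neither the spread among genes nor the variation between libraries. The interval of the quotient of both maxima at the TSS is a normal approximation of counting error. Total H3 was not measured in this series, so more acetylation per nucleosome, more nucleosomes, and acetylation in a larger share of the cells cannot be told apart.

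Lysine 14 lies in the flexible tail of histone H3. Acetyltransferases of the Gcn5, p300 and Myst families place acetyl groups on this tail, histone deacetylases remove them, and bromodomain proteins bind them. Acetylated H3 is known from promoters and enhancers of transcribed genes, and in mammals most promoters of widely expressed genes lie in CpG islands, stretches of DNA rich in unmethylated CpG.

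The 13HH3 library held 21176968 tags on chromosomes 1 to 19 after repeated tags were removed, and the input held 18688897. A tag is the position of 1 aligned read, moved 100 bp into its fragment, and densities are tags per 10000000 tags of the library on these chromosomes. The ratio of 13HH3 over input is the quotient of both densities, with no pseudocount. It was taken for 20483 of 21418 autosomal protein-coding transcription start sites (TSSs, 1 per gene, 2 kb on each side), leaving out 935 with fewer than 10 input tags, for 15530 gene bodies and for 818563 intergenic (distal) bins of 1 kb. Summed over all annotated TSS windows the ratio was 1.34 (1.33 to 1.34), over gene bodies 1.04 (1.04 to 1.04) and over distal bins 0.932 (0.931 to 0.933). Windows that overlap count the same tags more than once in this sum. Merged into 19475 stretches, they held 5.25% of the 13HH3 tags and 3.99% of the input tags, a ratio of 1.32 (1.31 to 1.32).

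The input did not run parallel to the immunoprecipitates along the chromosomes. The ratio of a whole chromosome ran from 0.755 on chromosome 17 to 1.22 on chromosome 12, with H3K9ac over input at 0.810 and 1.13 and 7G8 over input at 0.731 and 1.23 on the same chromosomes. Of 2398 blocks of 1 Mb, measured outside TSS windows, 26 had a ratio below 0.5 and 35 a ratio above 1.5. In chr17:3000001-4000000 the input stood at 4.87 times its autosomal mean while 13HH3 stood at 1.16 times its own. In distal bins the ratio also moved with base composition, from 0.786 in bins of 35 to 40% GC to 1.30 in bins of 55 to 60% GC. On chromosomes X and Y, which were left out of the results, 13HH3 over input was 0.619 and 3.60, H3K9ac over input 0.661 and 3.00, and 7G8 over input 0.738 and 4.51, although all 4 labels name the same line. Whether the input was made from the same cells as the immunoprecipitates was not tested. The part of these differences in the results was not tested. Main results are therefore also given after division by the ratio found 10 to 50 kb away on both sides (the flank-scaled ratio), an alternative that was added after the data had been seen. Only bins in protein-coding TSS windows were left out of the flanks. Signal of 13HH3 in gene bodies or distal bins there thus also lowers the flank-scaled ratio. A drop on this scale cannot tell high 13HH3 in the flanks from low input there.

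The sequences below are picked examples that differ in CpG content, and they do not give its range among sites with high ratios. They are the 200 bases before the TSS of 5 of the TSSs with the highest ratios and of 1 with a very low ratio, and the 200 bases with the most 13HH3 tags in 3 of the distal bins with the highest ratios. All were read from mm9 and are printed 5′ to 3′, promoters on the strand of the gene and distal sites on the plus strand. Capitals mark each CpG. The promoters are Ftl1 (chr7:52715255-52715454, minus strand, 14 CpGs), Naca (chr10:127472202-127472401, plus strand, 9 CpGs), Ncl (chr1:88256031-88256230, minus strand, 21 CpGs), Phc1 (chr6:122290580-122290779, minus strand, 7 CpGs), Gm11735 (chr11:116611243-116611442, minus strand, 4 CpGs) and Olfr1124 (chr2:87274446-87274645, plus strand, 0 CpGs). The distal sites are named by their nearest protein-coding TSS, those of Klf9 (chr19:23163401-23163600, 0 CpGs), Sall1 (chr8:91474211-91474410, 3 CpGs) and Sox2 (chr3:34658391-34658590, 4 CpGs). Their whole bins of 1 kb held 3, 38 and 22 CpGs in this order. In the 200 bases before the TSS the median was 19 CpGs over the 20 TSSs with the highest ratios. It was 15 over TSSs with a ratio of at least 2 and 8 over all counted TSSs.
Ftl1: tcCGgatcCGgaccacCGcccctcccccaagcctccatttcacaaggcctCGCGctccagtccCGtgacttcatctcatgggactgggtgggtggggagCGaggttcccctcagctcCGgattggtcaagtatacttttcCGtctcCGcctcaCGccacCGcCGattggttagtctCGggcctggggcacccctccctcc
Naca: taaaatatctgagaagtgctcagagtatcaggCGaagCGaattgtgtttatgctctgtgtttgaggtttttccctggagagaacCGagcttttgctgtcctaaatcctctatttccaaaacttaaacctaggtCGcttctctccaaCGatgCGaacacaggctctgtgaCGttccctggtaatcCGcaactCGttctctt
Ncl: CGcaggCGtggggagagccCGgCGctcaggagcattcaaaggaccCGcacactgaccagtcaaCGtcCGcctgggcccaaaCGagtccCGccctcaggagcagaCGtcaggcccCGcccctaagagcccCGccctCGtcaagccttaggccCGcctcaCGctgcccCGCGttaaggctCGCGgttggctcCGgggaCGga
Phc1: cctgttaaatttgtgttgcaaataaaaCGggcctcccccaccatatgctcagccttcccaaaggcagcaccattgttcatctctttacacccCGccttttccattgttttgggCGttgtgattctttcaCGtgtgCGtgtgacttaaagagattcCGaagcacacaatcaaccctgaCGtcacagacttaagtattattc
Gm11735: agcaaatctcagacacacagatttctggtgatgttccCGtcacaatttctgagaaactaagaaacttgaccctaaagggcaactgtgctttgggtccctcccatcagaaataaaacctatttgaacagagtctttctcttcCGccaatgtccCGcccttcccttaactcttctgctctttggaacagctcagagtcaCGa
Olfr1124: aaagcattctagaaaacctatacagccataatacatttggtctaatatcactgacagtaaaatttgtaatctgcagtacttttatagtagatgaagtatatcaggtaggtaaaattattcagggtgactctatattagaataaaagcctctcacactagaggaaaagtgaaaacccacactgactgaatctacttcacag
Klf9 distal: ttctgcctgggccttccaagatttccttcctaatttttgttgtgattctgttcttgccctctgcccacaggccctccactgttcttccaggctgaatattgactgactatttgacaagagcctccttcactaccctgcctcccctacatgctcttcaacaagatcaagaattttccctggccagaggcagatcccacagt
Sall1 distal: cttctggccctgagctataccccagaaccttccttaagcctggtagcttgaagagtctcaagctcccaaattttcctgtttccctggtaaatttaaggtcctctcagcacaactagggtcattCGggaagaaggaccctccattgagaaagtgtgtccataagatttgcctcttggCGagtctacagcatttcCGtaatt
Sox2 distal: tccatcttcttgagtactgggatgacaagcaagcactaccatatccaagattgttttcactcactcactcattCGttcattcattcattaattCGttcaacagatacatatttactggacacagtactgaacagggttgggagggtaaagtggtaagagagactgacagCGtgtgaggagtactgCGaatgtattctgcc

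At the promoters with high ratios these 200 bases held 0 13HH3 tags at Ftl1, 19 at Naca, 2 at Ncl, 0 at Phc1 and 14 at Gm11735. Beside them stood 0 or 1 input tags at each. At the distal sites the same length held 38 tags near Klf9, 46 near Sall1 and 38 near Sox2, beside 3, 1 and 3 input tags. The distal stretches were picked for their tags and the promoter stretches by position, so these counts are not a comparison between them.

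The 20 TSSs with the highest ratios, ranked by the lower bound of their interval, are described first. At the top stood Ftl1 (ferritin light chain, which stores iron), with 268 tags in 13HH3 and 23 in input, a ratio of 10.3 (6.71 to 16.5). Naca, a subunit of the complex that meets nascent polypeptides at the ribosome, had 225 and 21 tags and a ratio of 9.46 (6.04 to 15.6). Phc1, a Polycomb group subunit, had 247 and 24 tags and a ratio of 9.08 (5.96 to 14.4). Ncl (nucleolin, of the nucleolus) had 217 and 22 tags and a ratio of 8.71 (5.60 to 14.2). The 4 input counts lay between 21 and 24, so the intervals were wide and overlapped, and the order among these TSSs is not resolved.

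Ribosomal and translation genes were among the rest, which are grouped here by role and not by rank. Rps14 had 209 tags in 13HH3 and 21 in input (ratio 8.78, 5.60 to 14.5) and Rpl3 had 220 and 26 (7.47, 4.96 to 11.7). The initiation factor genes Eif2s2 and Eif4a2 had 117 and 245 tags over 13 and 35 in input, ratios of 7.94 (4.47 to 15.4) and 6.18 (4.32 to 9.07). Eef1e1, a component of the complex of tRNA synthetases, had 108 and 12 tags (7.94, 4.36 to 15.8). The window of Lias (lipoic acid synthetase) is shared with that of Rpl9, whose TSS lies 54 bp away on the opposite strand, and held 132 and 16 tags (7.28, 4.32 to 13.1). Likewise Mttp, which loads lipid onto lipoproteins, shares its window with Rg9mtd2 at 60 bp and held 106 and 11 tags (8.50, 4.57 to 17.6). In these 2 windows the tags cannot be given to either gene.

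The 20 also held chaperone, RNA-binding and chromatin genes. Hspa8, the constitutive Hsc70 chaperone, had 166 tags in 13HH3 and 19 in input (ratio 7.71, 4.78 to 13.1). Hnrnpa3, which binds pre-mRNA, had 144 and 16 (7.94, 4.73 to 14.3). Ptma (prothymosin alpha) had the most 13HH3 tags of the 20, 348, but also the most input tags, 47, and a ratio of 6.53 (4.81 to 9.06). Brd2, itself a reader of acetylated histones through its bromodomains, had 230 and 31 tags (6.55, 4.49 to 9.86). Trp53inp1, a p53 target, had 229 and 26 (7.77, 5.17 to 12.2). Actg1 (gamma actin) and 0610009L18Rik, whose TSSs lie 136 bp apart on opposite strands, shared nearly all their tags, with 232 and 28 tags at Actg1 (7.31, 4.93 to 11.2) and 233 and 28 at 0610009L18Rik (7.34, 4.95 to 11.3).

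Gm11735 was the exception among the 20. It was the only CpG-poor TSS there, the other 19 being CpG-rich, and had 257 tags in 13HH3 and 34 in input, a ratio of 6.67 (4.65 to 9.84). Its density was 121 tags in 13HH3, 95.5 in 7G8 and 79.8 in H3K9ac. These are the highest 7G8 density and the lowest H3K9ac density of the 20, whose 7G8 densities ran from 35.7 to 95.5 and H3K9ac densities from 79.8 to 310.5. At Ftl1 the densities were 127 in 13HH3, 58.1 in 7G8 and 232 in H3K9ac, and at Eif4a2 they were 116, 86.9 and 310.5. Over all counted TSSs the median densities were 26.4 in 13HH3, 26.2 in 7G8, 56.0 in H3K9ac and 19.8 in input. These densities are not divided by the input and are given side by side as a description.

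**Figure D1:**
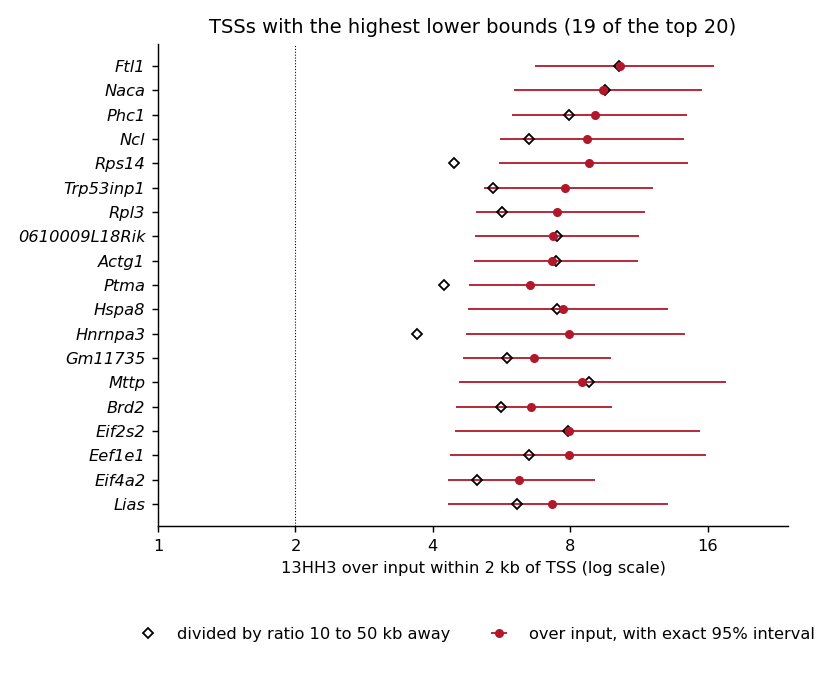
Ratio of 13HH3 over input within 2 kb of the TSS (log axis) for 19 of the 20 TSSs with the highest lower bounds, with the exact 95% interval as a bar, and the flank-scaled ratio as an open diamond. All 19 flank-scaled ratios drawn, from 3.69 to 10.2, lie above 2, but those of Rps14 (4.45), Ptma (4.24) and Hnrnpa3 (3.69) lie below their intervals.

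The densest 250 bp of these TSS windows rarely lay on the TSS itself. For Rps14 it was centred 375 bp downstream with 55 of its 13HH3 tags and 1 input tag, and for Naca 625 bp downstream with 51 and 2 tags. For Ptma it was centred 625 bp upstream, with 75 and 5 tags, and for Lias, whose window also holds Rpl9, 375 bp upstream, with 38 and 1. For Gm11735 it lay farthest out, 1375 bp upstream, with 38 and 3 tags. Scaled by the flanks, Ftl1 had a ratio of 10.2, Naca 9.55, Phc1 7.94 and Ncl 6.49.

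At the other end, the TSSs with the lowest ratios included receptor and cytochrome genes, genes in 2 stretches of chromosome 17 and an uncharacterised gene of chromosome 12. Klra3, a receptor gene of natural killer cells, had 0 tags in 13HH3 and 24 in input, and its neighbour Klra9, whose window overlaps it, had 1 and 23. Cyp2b9, a cytochrome P450 gene, had 0 and 23 tags, and Ugt2b38, for a glucuronosyltransferase, had 0 and 12. Mrgpra9, a receptor gene of sensory neurons, had 2 and 25 tags, and the olfactory receptor gene Olfr1124 had 2 and 22. The upper bounds of the ratio were 0.147 for Klra3, 0.236 for Klra9, 0.154 for Cyp2b9, 0.318 for Ugt2b38, 0.283 for Mrgpra9 and 0.326 for Olfr1124. The flanks of Klra3 and Klra9 were themselves low against input (0.252 and 0.260), and the ratio of Klra9 moved from 0.0384 to 0.148 when flank-scaled. The densities were 1.32 in H3K9ac and 1.72 in 7G8 at Klra3, and 0 in both at Cyp2b9. At Olfr1124 they were higher, 5.73 in H3K9ac and 7.31 in 7G8, beside 0.944 in 13HH3 and 11.8 in input.

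The low ratios on chromosome 17 stood beside high input. Nox3, an oxidase gene, had 19 tags in 13HH3 and 155 in input, and Cldn20, a claudin gene, had 63 and 230. ORF19 had 42 and 162 tags. Flank-scaled, these 3 ratios moved from 0.108 to 0.652, from 0.242 to 1.30 and from 0.229 to 1.14, so they did not stand low against their surroundings at Cldn20 and ORF19. The TSS of 5730507C01Rik, an uncharacterised gene of chromosome 12, had 3 and 27 tags and went from 0.0981 to 3.26, its flanks having a ratio of 0.0301.

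Across all counted TSSs, 3283 had at least 2-fold of the input density, 16.0% of 20483, and 541 had at most 0.5-fold, 2.64%. The median log2 ratio was 0.35, with quartiles at -0.07 and 0.78. The interval lay wholly above 1 at 6879 TSSs and wholly below 1 at 985. Just inside the threshold stood Carhsp1 (68 tags in 13HH3 and 30 in input, ratio 2.00) and just outside it A430078G23Rik (145 and 64, ratio 1.999), so the line of 2-fold separates no gap in the values. Flank-scaled, 2747 TSSs (13.4%) stood at or over 2-fold and 270 at or under 0.5-fold, and the log2 of the median ratio was 0.31. Of the 3283, 895 (27.3%) shared part of their window with that of another protein-coding TSS, against 17.8% of all counted TSSs.

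The ES identity of the chromatin was checked at 12 marker genes of ES cells and 12 of fibroblasts, the cell type of the feeders. Of the ES markers, 5 stood at or over 2-fold, and the interval lay above 1 at 9. Tdgf1, the Nodal co-receptor Cripto, had 212 tags in 13HH3 and 31 in input (ratio 6.03, 4.13 to 9.11), Zfp42 (Rex1) had 153 and 23 (5.87, 3.77 to 9.54), Sox2 had 146 and 31 (4.16, 2.81 to 6.34), Klf4 had 143 and 41 (3.08, 2.16 to 4.47) and Dppa5a had 81 and 26 (2.75, 1.75 to 4.46). Pou5f1, which encodes Oct4, had 100 and 61 tags (1.45, 1.04 to 2.02), and Nanog had 91 and 66 (1.22, 0.877 to 1.70), a ratio whose interval includes 1. Flank-scaled, the first 5 stayed over 2-fold, with Zfp42 at 3.105, Sox2 at 2.75 and Klf4 at 2.09, whereas Sall4 went from 1.72 to 1.07, Pou5f1 to 1.07, and Nanog (0.969), Esrrb (0.983), Dppa4 (0.990) and Tcl1 (0.834) turned below 1. None of the 12 fibroblast markers stood at or over 2-fold, and all 12 intervals included 1. The fibroblast ratios ran from 0.662 at Lum to 1.57 at Dcn, both genes of the extracellular matrix. Summed over the list, the density was 593.6 in 13HH3 and 253.6 in input for the ES markers, and 289 and 256 for the fibroblast markers.

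Gene groups differed widely in how many of their TSSs stood at or over 2-fold. These counts are read against the 16.0% of all counted TSSs and are a description, since the groups were chosen with earlier results of these data known. The groups also differ in CpG class, which is described below. CpG-rich were 74 of 80 ribosomal protein, 72 of 85 respiratory chain, 23 of 24 immediate early and 29 of 39 lineage regulator TSSs. Of 12 fibroblast markers 2 were CpG-rich, and of 1042 olfactory receptor TSSs 1. Over all counted TSSs, 26.2% of the CpG-rich and 3.78% of the CpG-poor stood at or over 2-fold. The part of CpG class in the group shares was not tested. Cytosolic ribosomal protein genes were highest, with 70 of 80 (87.5%) and a median log2 ratio of 1.96. Their lowest members were Rpl18 (33 tags in 13HH3 and 51 in input, log2 -0.81) and Rps4y2 (68 and 78, log2 -0.38). Splicing factor genes of the hnRNP and SR families followed with 21 of 28 (75%) and a median of 1.79, from Hnrnpa3 at 2.99 and Hnrnpu at 2.64, which both bind RNA, down to Srsf7 at -0.38. Flank-scaled, Rps4y2 had a ratio of 1.18 and Srsf7 of 1.53, on the other side of 1, while Rpl18 stayed low at 0.468. Chaperone genes had 22 of 39 (56.4%) and a median of 1.12, led by Hspa8 at 2.95 and the mitochondrial Hspa9 at 2.58, while Hspa1l (17 and 20 tags, log2 -0.41) and Hspa12a (50 and 57, log2 -0.37) stood lowest. Translation factor genes had 25 of 64 (39.1%) and a median of 0.86, with Eif3i at -0.14 and Eif2c1, an Argonaute gene, at -0.21 as the lowest.

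**Figure D2:**
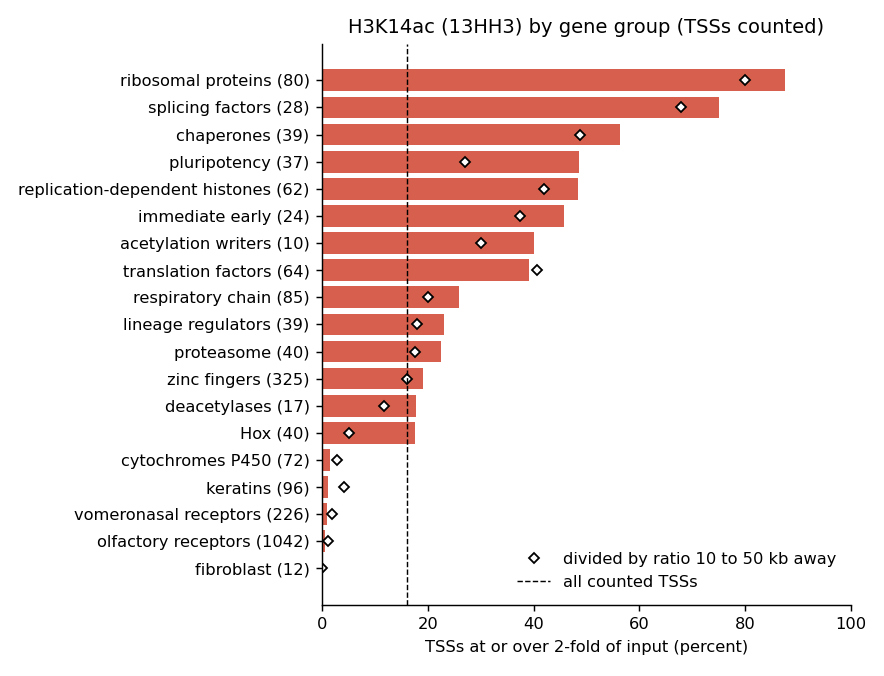
Percent of the counted TSSs of each gene group at or over 2-fold of input (bars), the same after division by the flanks (open diamonds), and the percent over all counted TSSs (dashed line, 16.0, or 13.4 on the scale of the diamonds, not drawn). Ribosomal protein and splicing factor genes reach 87.5 and 75%, whereas olfactory receptor genes and fibroblast markers lie near 0.

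Proteasome and respiratory chain genes stood closer to the background. Proteasome genes had 9 of 40 (22.5%) at or over 2-fold and a median log2 ratio of 0.57, with the core subunit Psma3 at 1.85 and the thymus subunit Psmb11 at -0.40. Scaled by the surrounding 1 Mb, 4 of the 40 remained, beside 12.4% of all counted TSSs, and flank-scaled 7, beside 13.4%. Genes of the mitochondrial respiratory chain had 22 of 85 (25.9%) and a median of 0.59, led by Ndufa7 of complex I at 1.96 and Atp5f1 of the ATP synthase at 1.80. Ndufv2 was their lowest, with 57 tags in 13HH3 and 154 in input, a log2 ratio of -1.61, and lies in a stretch of chromosome 17 with high input. Its flank-scaled ratio was 1.72. Ndufv3, also on chromosome 17, had 21 and 36 tags and a ratio of 0.515, and stayed low when scaled by its flanks (0.439). Farther from the background, replication-dependent histone genes, which lie in clusters and share windows, had 30 of the 62 counted among 67 members (48.4%) and a median of 0.98, from Hist1h2bb (100 and 16 tags, log2 2.46) and Hist1h3c (101 and 18, log2 2.31) down to Hist1h4c (13 and 23, ratio 0.499) and the testis linker histone gene Hist1h1t (23 and 41, log2 -1.01).

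Genes of ES identity had 18 of 37 TSSs (48.6%) at or over 2-fold and a median log2 ratio of 0.90, and 0 at or under 0.5-fold. Tdgf1 and Zfp42 were highest, and the lowest were Dnmt3b, a DNA methyltransferase gene (53 tags in 13HH3 and 57 in input, log2 -0.29), and Lin28a, an RNA-binding protein gene (46 and 51, log2 -0.33). Scaling by the flanks left 10 of the 37 at or over 2-fold, to be read against 13.4% of all counted TSSs on that scale, and moved the log2 of its median ratio to 0.53. Immediate early genes, which respond to signals within minutes, had 11 of 24 (45.8%) and a median of 0.73. Ier2 had 186 and 31 tags (log2 2.40) and Klf6 had 124 and 21 (log2 2.38), whereas Egr4 (65 and 76, log2 -0.41) and Npas4, an activity-induced gene of neurons (16 and 40, log2 -1.50), stood lowest. Regulators of differentiated lineages had 9 of 39 (23.1%) and a median of 0.53, with Nkx6-1, of pancreas and neural tube, at 1.97 and Otx2, of the forebrain, at 1.74 (flank-scaled ratio 1.83, from 3.34). Mesp1 and Tbx6, both of early mesoderm, were lowest at -0.24 and -0.44. At Nkx6-1 the density was 56.7 in 13HH3, 45.4 in H3K9ac and 15.1 in 7G8. Hox genes had 7 of 40 (17.5%), 2 when flank-scaled, and ran from Hoxd9 at 1.62 and Hoxd3 at 1.56 to Hoxb8 at -0.09 and Hoxc4 at -0.39.

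Among the genes that write and erase acetylation, 4 of 10 matched acetyltransferase genes (40%) and 3 of 17 matched deacetylase genes (17.6%) stood at or over 2-fold. The 10 came from 15 listed symbols. The 17 came from 16 listed symbols, since a symbol can match more than 1 annotated gene. Hat1, which acetylates new histone H4, had 130 tags in 13HH3 and 16 in input (log2 2.84), and Myst2, the Hbo1 acetyltransferase, had 134 and 26 (log2 2.19). Kat2b, the Pcaf acetyltransferase, had 61 and 46 (ratio 1.17, and 0.778 when flank-scaled), and Myst4 was lowest (62 and 67, log2 -0.29). Of the deacetylase genes Hdac9 had 65 and 22 tags (log2 1.38) and Hdac2, one of the main nuclear deacetylases, had 84 and 31 (log2 1.26), while Hdac10 (58 and 73, log2 -0.51) and Hdac7 (54 and 81, log2 -0.77) were lowest. The ratio of Hdac10, 0.701, turned to 1.05 when flank-scaled.

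Gene families of specialised cells were at the low end. Olfactory receptor genes had 6 of the 1042 counted among 1081 TSSs (0.576%) at or over 2-fold, 142 at or under 0.5-fold and a median log2 ratio of -0.39. Flank-scaled, these counts were 12 and 47. Olfr50 (30 tags in 13HH3 and 12 in input) and Olfr374 (68 and 28) were highest at 1.14 and 1.10. Olfr1124 was lowest, and Olfr1054, with 5 and 28 tags, stood at -2.67. Vomeronasal receptor genes had 2 of the 226 counted among 330 members at or over 2-fold, Vmn1r1 (66 and 26 tags) and Vmn1r35 (31 and 13), and Vmn2r67 (4 and 21, log2 -2.57) and Vmn1r170 (3 and 14, log2 -2.40) were lowest. Keratin and keratin-associated genes had 1 of the 96 counted among 97, Krtap5-5 (88 and 27 tags, log2 1.52), with Krt15, of the basal epidermis, next at 0.73, and Krtap16-4 and Krt6b lowest at -1.45 and -1.47. Cytochrome P450 genes had 1 of 72, Cyp2f2 (89 and 39, log2 1.01), followed by Cyp4f18 at 0.80, while Cyp2b13 and Cyp2b9 had 0 tags in 13HH3 over 11 and 23 in input. Zinc finger (Zfp) genes were mixed, with 62 of the 325 counted among 337 (19.1%), from Zfp42 and Zfp91 (115 and 21, log2 2.27) to Zfp950 (8 and 24, log2 -1.77) and Zfp735 (7 and 22, log2 -1.83). Flank-scaled, the counts at or over 2-fold and at or under 0.5-fold were 4 and 18 for vomeronasal receptors (2 and 36 before), 4 and 0 for keratins (1 and 5) and 2 and 5 for cytochromes P450 (1 and 7). The median log2 ratio of keratins turned from -0.18 to 0.13. The receptor families stood less low against the flanks. There the log2 of the median ratio was -0.04 for olfactory and -0.16 for vomeronasal receptor genes. These values stayed below those of all counted TSSs, 0.35 before and 0.31 flank-scaled. At or under 0.5-fold stood 541 of all 20483 counted TSSs (2.64%), and 270 of 20482 when flank-scaled. Windows of olfactory receptor genes had a median GC content of 36.7%, against 48.4% for all counted TSSs.

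The ratio moved with the CpG content of the promoter. CpG-rich TSSs, which have a 500 bp window with over 55% GC and an observed to expected CpG ratio over 0.75 within 1 kb, had a median log2 ratio of 0.61 (10337 TSSs). Intermediate TSSs had 0.23 (4039 TSSs) and CpG-poor TSSs, with no window over 0.48, had -0.03 (6107 TSSs). The share at or over 2-fold was 26.2%, 8.54% and 3.78% in this order, and the share at or under 0.5-fold was 0.397%, 2.67% and 6.42%. The median input count was 36, 39 and 35 tags, and the median 13HH3 count was 63, 53 and 41. Sorted by the number of CpGs in the window, the median log2 ratio went from -0.30 in the lowest of 10 equal classes of TSSs (median 16 CpGs) to 0.80 in the highest (median 201 CpGs), and was higher in each class than in the preceding class. The median flank-scaled ratio went from 0.991 in the lowest class, near 1, to 1.59 in the highest.

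The difference in the median log2 ratio between CpG-rich and CpG-poor TSSs was 0.64 (0.61 to 0.67 from the bounds of both medians over TSSs). It was 0.46 within windows of 45 to 50% GC, where the medians were 0.64 over 3931 CpG-rich TSSs and 0.18 over 1610 CpG-poor TSSs. Among CpG-rich TSSs the median was 0.63 at 40 to 45% GC, 0.64 at 45 to 50%, 0.62 at 50 to 55% and 0.50 at 55 to 60%. Among CpG-poor TSSs it was -0.05, 0.18, 0.21 and 0.20 in the same ranges, and -0.31 at 35 to 40%. The CpG-rich median was thus the higher in each range from 40 to 60%, by amounts that differed between ranges. Flank-scaled, the log2 of the median ratio was 0.53 for CpG-rich and 0.06 for CpG-poor TSSs.

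Short promoter elements were counted in the 200 bases before the TSS, on both strands. GGGCGG, the GC box, was present at 54.0% of the TSSs at or over 2-fold and at 39.6% of all counted TSSs. Within the CpG-rich class it was present at 60.8% of those at or over 2-fold and at 62.1% of the others. CCAAT was present at 29.8% and 30.0%. TATAAA was present at 5.12% of the TSSs at or over 2-fold and at 9.65% of all, and within the CpG-poor class at 10.4% of 231 and 19.7% of 5876. TGACGTCA, the full cyclic AMP response element, was present at 3.29% and 1.85%, and within the CpG-rich class at 3.62% of 2707 and 2.58% of 7630. A match is a description of the letters and not of a bound factor.

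Averaged over all 21418 TSSs, the ratio of 13HH3 over input had a maximum on each side of the TSS, the larger downstream. It reached 1.97 (1.94 to 2.00) at 250 bp downstream and 1.499 (1.47 to 1.53) at 350 bp upstream, with 1.36 at 50 bp upstream between them, and was 1.05 at 4 to 5 kb. With all repeated 13HH3 tags kept, the highest bin upstream was that next to the TSS, at 50 bp (1.59), with a lower maximum of 1.54 at 350 bp and 1.435 at 150 bp between them. The upstream over the downstream maximum was 0.762 (0.744 to 0.780). At CpG-rich TSSs the maxima were 2.56 (2.51 to 2.62) and 1.86 (1.81 to 1.90) with 1.49 between them, at the same distances. Intermediate TSSs reached 1.62 (1.56 to 1.67) at 250 bp downstream and CpG-poor TSSs 1.26 (1.23 to 1.30) at 50 bp downstream, and neither had a separate maximum upstream.

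**Figure D3:**
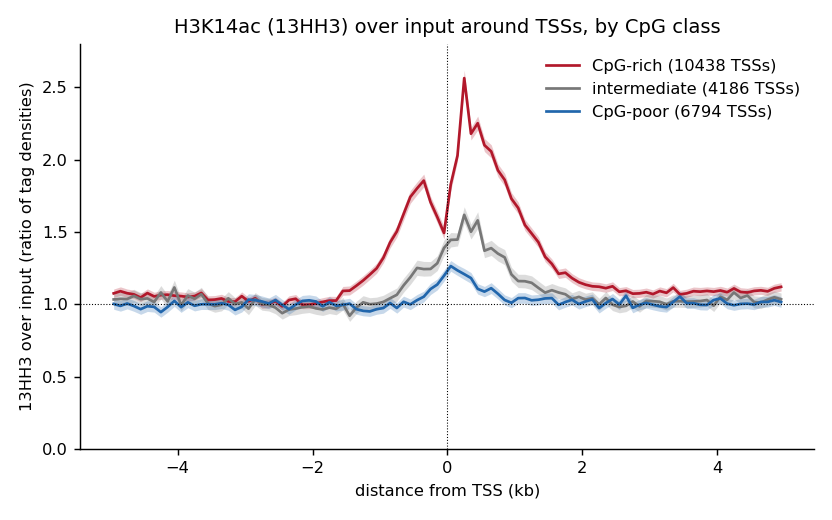
Ratio of 13HH3 over input in bins of 100 bp against the distance from the TSS, summed over all autosomal TSSs of each CpG class, with the exact 95% interval as a band. The CpG-rich line has maxima of 1.86 upstream and 2.56 downstream with a dip to 1.49 between them, and over 4 to 5 kb on both sides the ratio was 1.08 for CpG-rich, 1.04 for intermediate and 0.999 for CpG-poor TSSs.

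The sides were also compared gene by gene. Of 2343 TSSs at or over 2-fold with no other protein-coding TSS within 5 kb, 1853 (79.1%) had more 13HH3 tags in the downstream than in the upstream kb and 451 had more upstream. The input leaned the same way, with more tags downstream at 60.9% of the same TSSs, and summed tags downstream over upstream were 1.76 in 13HH3 and 1.29 in input. Among 14119 other counted TSSs that stood alone the downstream kb held more 13HH3 tags at 71.3% and more input tags at 62.3%. The 20 TSSs with the highest ratios were split, with more 13HH3 tags upstream at 9 and downstream at 11. They were not limited to TSSs that stood alone, so this split is not on the same basis. Actg1, Mttp and Lias, all with more upstream, have an opposite TSS 136, 60 and 54 bp away. For example, Ftl1, Trp53inp1 and Ptma had more upstream (102 against 74, 120 against 54 and 140 against 56 tags), and Naca, Rps14, Rpl3 and Eif4a2 had more downstream (134 against 39, 134 against 21, 141 against 21 and 145 against 28 tags).

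In gene bodies the ratio was near 1. Bodies ran from 2 kb past the TSS to the end of genes of at least 5 kb, without positions within 2 kb of any protein-coding TSS, but starts of shorter transcripts inside them were not removed. The median log2 ratio was 0.01, with quartiles at -0.27 and 0.28. At least 1.5-fold of input was found at 1219 of 15530 bodies (7.85%) and at most 1/1.5 of it at 1365 (8.79%), so high and low bodies were about as frequent. Flank-scaled, 617 stood high and 1191 low, and scaled by the surrounding 1 Mb 440 and 1115.

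The bodies with the highest lower bounds were mixed in kind. Apol10a, an apolipoprotein L gene, had 122 tags in 13HH3 and 18 in input over 12022 bp (ratio 5.98, 3.63 to 10.4), and Apol11a, of the same family and chromosome, had 65 and 13 over 7048 bp (4.41, 2.41 to 8.73). Gpx4, which protects membrane lipids from oxidation, had 388 and 83 tags (4.12, 3.25 to 5.29), of which 114 lay in a single kb 5574 bp from the TSS. Rpl13a had 357 and 78 (4.04, 3.15 to 5.23), with 115 in a kb 8459 bp from its TSS. In Hsp90aa1, the inducible Hsp90 gene, 44 of 196 tags lay in a kb 6509 bp from the TSS, over 48 input tags in the body (3.60, 2.62 to 5.05). In Sp8, a transcription factor of limb and brain, 56 of 94 tags (59.6%) lay in a kb 2632 bp from the TSS, over 21 in input (3.95, 2.44 to 6.68).

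St6galnac1 and Jdp2 were broad instead. St6galnac1, a sialyltransferase gene, had 748 tags in 13HH3 and 202 in input over 30512 bp (ratio 3.27, 2.79 to 3.84), and its densest kb held 11.2% of them. It spans the TSS of Gm11735, whose window was left out of the body. The body density was 353 in 13HH3, 337 in 7G8 and 291 in H3K9ac. Jdp2, a partner of Jun proteins, had 1034 and 330 tags over 38461 bp (2.77, 2.44 to 3.14) with 6.48% in the densest kb, and 1.66 when flank-scaled. Klra4 (130 and 31 tags, 3.70, 2.48 to 5.67) and Gm16387 (112 and 22, 4.49, 2.83 to 7.46) were not high against their flanks, at 1.06 and 1.46.

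The lowest bodies repeated the loci of the lowest TSSs. Cyp2b13 had 3 tags in 13HH3 and 121 in input over 32701 bp (ratio 0.0219, 0.00445 to 0.0655), and 5730507C01Rik had 3 and 73 (0.0363, 0.00731 to 0.110). ORF19 (85 and 576 tags, 0.130), Tfb1m, for a mitochondrial transcription factor (285 and 1675, 0.150), and Ddx11, for a helicase (322 and 1820, 0.156), lie in 2 of the stretches of chromosome 17 with high input. Flank-scaled, these 3 had ratios of 0.659, 0.764 and 0.777, and 5730507C01Rik had 0.519. Cyp2b13 turned to 2.06, with a ratio of 0.0106 in its flanks.

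Genes with a TSS at or over 2-fold had a median log2 body ratio of 0.14 (0.12 to 0.16, 2763 genes), against -0.02 (-0.03 to -0.01, 12589 genes) for the others. Scaled by the surrounding 1 Mb, the log2 of the median ratio was -0.04 and -0.05, and scaled by the flanks -0.05 and -0.03, so the difference was not seen against the surroundings. Along genes of at least 20 kb whose TSS was alone within 5 kb, the ratio of summed tags fell from 3.49 (3.42 to 3.56) in the first kb to 2.28 (2.23 to 2.33) in the next and 1.46 (1.42 to 1.49) from 2 to 3 kb, and then slowly to 1.26 (1.25 to 1.27) at 15 to 20 kb, over 1380 genes with a TSS at or over 2-fold. Over 6235 other genes it was 1.52 (1.51 to 1.54), 1.10 (1.09 to 1.11) and 1.04 (1.03 to 1.05), with 1.06 (1.06 to 1.07) at 15 to 20 kb. The first 2 kb of this comparison lie in the window that sorted the genes.

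**Figure D4:**
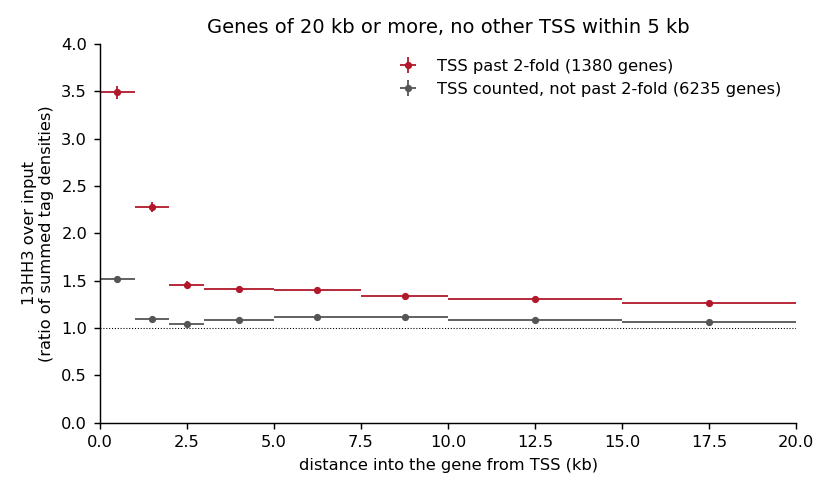
Ratio of 13HH3 over input, from summed tags, against the distance into the gene, for genes of at least 20 kb with a TSS at or over 2-fold (red) and other counted genes (grey). Horizontal bars give the width of each interval of distance and vertical bars the exact 95% interval, and the red points fall from 3.49 to 1.46 within 3 kb and reach 1.26 at 15 to 20 kb.

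Away from genes, a small share of bins stood high. Distal bins were 1 kb long and at least 2 kb from any annotated gene, and 8387 of 818563 with at least 5 input tags (1.02%) stood at or over 3-fold of input, whereas 87128 (10.6%) stood at or under 1/3. The minimum on input favours bins with many input tags, and with at least 10 tags in both libraries together the counts were 29186 and 49403. The median log2 ratio was -0.33, and the log2 of the median flank-scaled ratio was -0.20, with 7228 bins at or over 3-fold (0.883%). The 8387 bins formed 7731 runs, of which 7194 were single bins, 453 were pairs and 84 had 3 bins or more. Their mean GC content was 47.4%, against 42.0% for all counted bins, and their median number of CpGs 11, against 6. That all their intervals excluded 1 follows from the fold and the minimum of 5 input tags. The lower bound was above 2 at 842 of them.

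The 10 distal bins with the highest lower bounds are named here by the nearest protein-coding TSS. For 4 of them a non-coding gene lay closer, C330002G04Rik at 12658 bp for the bin of Klf9, Sox2ot at 76460 bp for that of Sox2, Gm12984 at 5264 bp for that of Clic4 and Mir290 for that of Nlrp12. The bin with the highest lies 52216 bp from the TSS of Klf9, a Krüppel-like factor gene (chr19:23163001-23164000), with 116 tags in 13HH3 and 6 in input, a ratio of 17.1 (7.61 to 47.5). The next lies 93561 bp from Sall1, a zinc finger factor gene (chr8:91474001-91475000, 38 CpGs), with 120 and 7 tags (15.1, 7.12 to 38.4). A bin 109573 bp from Sox2 (chr3:34658001-34659000) had 107 and 11 tags (8.58, 4.61 to 17.7), and a bin 2921 bp from Phc1 (chr6:122293001-122294000), whose TSS was also among the highest, had 99 and 7 (12.5, 5.84 to 31.9). A bin 6627 bp from Mir290, a microRNA gene of the cluster typical of ES cells (chr7:3211001-3212000), had 74 and 5 tags (13.1, 5.35 to 41.4), although the nearest protein-coding TSS is that of Nlrp12.

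For the other 5 the nearest protein-coding TSSs were those of Zfp945, Adam23, Clic4, Mrpl45 and Pura. They held 109, 127, 129, 101 and 77 tags in 13HH3 over 7, 11, 12, 9 and 6 in input, and their ratios were 13.7, 10.2, 9.49, 9.90 and 11.3. Their distances from these TSSs ran from 3965 bp for Adam23, a cell surface protein gene, to 28771 bp for Clic4, a chloride channel gene. Densities at the bin near Klf9 were 54.8 in 13HH3, 79.4 in H3K9ac and 24.1 in 7G8, and at the bin near Sall1 they were 56.7, 74.1 and 24.1. Flank-scaled, the 10 ratios ran from 4.86 near Sox2 to 17.2 near Zfp945.

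**Figure D5:**
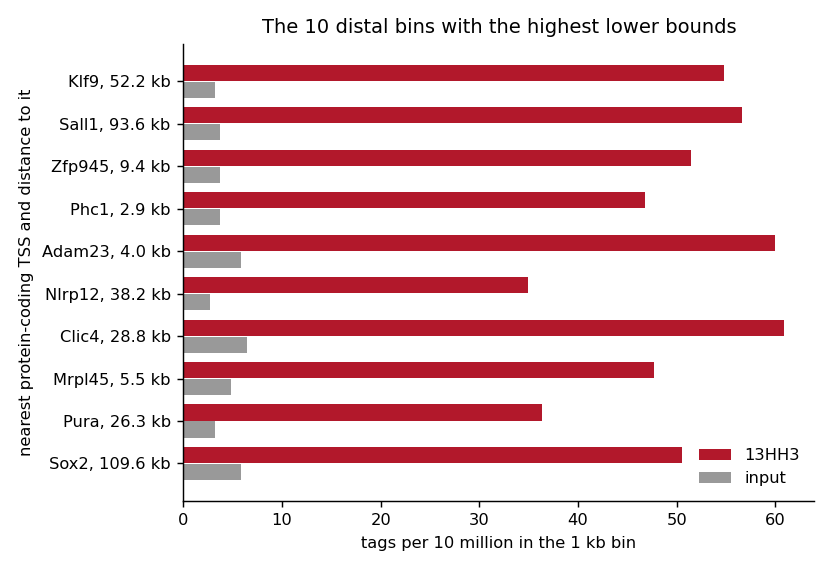
Tags per 10000000 in the 10 distal bins of 1 kb with the highest lower bounds, in 13HH3 (red) and input (grey), each named by its nearest protein-coding TSS and the distance to it. Densities of 13HH3 lie between 34.9 and 60.9, and those of input between 2.68 and 6.42.

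The longest run of bins at or over 3-fold lay 51847 bp from the TSS of Klf4 (chr4:55485001-55494000), where 9 bins held 483 tags in 13HH3 and 76 in input, a ratio of 5.61. A run of 7 bins lay 24988 bp from Spen, a corepressor gene (chr4:141119001-141126000), with 355 and 65 tags (4.82). A run of 6 lay in chr7:3201001-3207000, in the stretch before the bin near Mir290, with 338 and 49 tags (6.09), and another of 6 lay 16161 bp from Smarcad1, a chromatin remodeller gene, with 306 and 44 (6.14). A run of 4 bins held the bin near Sall1, with 315 and 31 tags (8.97).

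The share of bins at or over 3-fold was 4.75% (162 of 3409) where the nearest protein-coding TSS belonged to a gene of ES identity, against 1.02% over all counted bins. The flank-scaled shares were 1.56% and 0.883%. Jarid2, a Polycomb partner, had 33 such bins of 392, Sox2 had 25 of 405, Klf4 18 of 431, Klf5 17 of 304 and Tbx3 16 of 503, and all 5 encode regulators of transcription. Such a bin was found for 24 of the 37 autosomal genes of the group, and over all 21418 annotated genes for 3990. Genes differ in their number of bins. Among those of the group with none were Pou5f1 (7 bins), Tdgf1 (17 bins) and Zfp42 (76 bins). The share was 2.23% for immediate early genes, 1.28% for lineage regulators, 0.828% for ribosomal protein genes, 0.330% for olfactory receptor genes and 0.332% for fibroblast markers. Flank-scaled these were 1.10%, 0.908%, 0.946%, 0.850% and 0.332%, against 0.883% over all counted bins. Over all genes Zfp36l1, for an RNA-binding protein that destabilises messages, had the most, 39 of 264 bins, but 0 when flank-scaled. The flank-scaled counts were 5 for Jarid2, 7 for Sox2, 13 for Klf4, 7 for Klf5 and 5 for Tbx3.

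With distance from the nearest TSS the share declined, from 1.80% at 2 to 5 kb to 1.64% at 20 to 50 kb, 0.616% at 100 to 500 kb and 0.202% beyond 500 kb. The ratio of summed tags moved from 1.01 to 0.801 over the same distances, and the mean GC content of the bins from 42.8% to 37.6%. Flank-scaled, the share declined less, from 1.20% to 0.605%. The octamer ATTTGCAT, the letters that Oct factors bind, was present in 6.13% of the bins at or over 3-fold and in 7.81% of all counted bins, on either strand. TCAAGGTCA, the letters of the Esrrb element, was present in 4.03% and 2.32%. The bins at or over 3-fold had a mean GC content of 47.4%, against 42.0% for all counted bins. These shares were not split by GC content, and the part of base composition in them was not tested. A match is again a description of the letters.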

How the data were processed

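Each line of a deposited file is 1 aligned read. Reads were single-end and 36 bases long, ELAND placed them on mm9 with at most 1 mismatch, and the authors deposited their positions (tags), so the values are tag counts with no normalization. The constant score of 1 was ignored. Of 22365676 deposited 13HH3 tags, 738711 (3.30%) repeat a position and strand and were dropped here. The input file, with 19313927 tags, holds no repeats, nor do those of H3K9ac and 7G8. Whether repeats were removed from these files before deposit was not tested. The setting with all 13HH3 tags kept thus sets repeated tags against an input without any. No tag lay beyond a chromosome end of NCBIM37 (mm9).

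Protein-coding TSSs and gene bodies came from GENCODE vM1, with the outermost annotated start as the TSS. Ratios of densities carry exact 95% binomial (Clopper-Pearson) intervals given the sum of both counts, which cover counting error only. Software was Python 3.11.15, with the packages scipy 1.17.1 for intervals, numpy 2.4.6 and pandas 2.3.3 for counting and matplotlib 3.10.9 for drawing. The ratio and interval were tried only on simulated (Poisson) counts with set folds. These hold counting error alone and leave out the differences between the libraries along the chromosomes. With 1 library per group no p-value was computed, and called means past the fold: 2 for TSSs (at least 10 input tags), 1.5 for gene bodies (at least 10 input tags and 1 kb left) and 3 for distal bins (at least 5 input tags, no unknown base).

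The text names the 20 TSSs with the highest lower and the 10 with the lowest upper bound, the 10 highest and 5 lowest gene bodies, the 10 highest distal bins, and the 2 highest and 2 lowest of each gene list, beside the marker genes, threshold neighbours, distal runs and genes with the most such bins. Of the 20 TSSs, 1 is not reported here. Gene lists were matched by symbol. Members and lists were chosen with earlier results of these data known. Alternatives concerned repeated tags, the shift, scaling, folds, windows, minimum counts, pseudocounts and the TSS chosen. H3K9ac and 7G8 were used only for densities and chromosome ratios. Expression data and peak calls were not used here.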

Additional observations from a re-analysis of the deposited data

Results flagged for a closer look

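Chromosomes X and Y lay outside the comparison of TSSs, gene bodies and distal bins. On chromosome Y, 13HH3 held 13635 tags and the input 3343, a ratio of 3.599 (3.47 to 3.74), where the autosomes ran from 0.755 to 1.22. The ratio to the same input was 3.00 for H3K9ac and 4.51 for 7G8. On chromosome X, 13HH3 held 435624 and the input 620902 tags, a ratio of 0.619 (0.617 to 0.622), beside 0.661 for H3K9ac and 0.738 for 7G8. All 4 libraries carry the same cell line label, and the source of the difference was not tested.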

How the results depend on the processing

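With 1 library per group, values are called moved here where a count differed by over 1.5 times or a value left its interval under the main setting. That is a counting interval, except for the CpG difference, where it comes from the bounds of both medians over TSSs. The number of TSSs past 2-fold, 3283, went to 7285 at 1.5-fold, 847 at 3-fold, 6879 by a lower bound above 1 and 1099 with 5 kb on each side, and lay between 2546 and 4788 under the other settings. High gene bodies, 1219, went to 440 when scaled by the surrounding 1 Mb, 617 when scaled by flanks and 169 at 2-fold. High distal bins, 8387, went to 42935 at 2-fold, 1946 at 4-fold, 21276 by a lower bound above 1, 867 with at least 10 input tags, 3329 with a pseudocount of 1 and 29186 with at least 10 tags in both libraries together. The upstream over the downstream maximum at the TSS, 0.7618, stayed below 1 in every setting and was 0.7229 with all tags kept (the highest upstream bin then at 50 bp), 0.7883 with a shift of 75 bp, 0.5863 without division by the input, 0.7236 at CpG-rich TSSs and 0.7113 at isolated TSSs of genes of at least 5 kb. The log2 difference between CpG-rich and CpG-poor TSSs, 0.64, was 0.5137 when scaled by 1 Mb, 0.7984 with 1 kb on each side, 0.5516 with CpG islands as the only class, 0.5983 with at least 20 input tags and 0.4611 at 45 to 50% GC. Folds, minimum counts and window sizes act by construction, and otherwise the cause was not tested. Scaling by flanks, minimums on the sum of both libraries and the GC range were chosen after seeing the data. Of 200 values for the 20 highest TSSs under alternatives, 22 left their counting interval and 0 changed direction. These 20 were picked for lower bounds of 4.32 or more, so a change of direction was hardly possible. With the TSS of the longest transcript their values were those of the main setting. Other TSSs crossed a ratio of 1 under flank scaling. Before scaling, the counting intervals of Srsf7, Rps4y2, Hdac10, Nanog, Dppa4, Tcl1 and Kat2b already included 1. Examples from below to above 1 are Ndufv2 (0.327 to 1.72), 5730507C01Rik (0.0981 to 3.26), Cldn20 (0.242 to 1.30), ORF19 (0.229 to 1.14), Srsf7 (0.769 to 1.53), Rps4y2 (0.769 to 1.18) and Hdac10 (0.701 to 1.05), and from above to below 1 Nanog (1.22 to 0.969), Esrrb (1.67 to 0.983), Dppa4 (1.56 to 0.990), Tcl1 (1.10 to 0.834) and Kat2b (1.17 to 0.778). Low input counts widen the intervals of single TSSs, and no replicate bounds the variation between libraries.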
